A study of Mus musculus with 15 samples.

Results

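The 10 genes described here encode costimulatory receptors of the osteoclast lineage and the enzymes and adaptors that act below them through the immunoreceptor tyrosine-based activation motif (ITAM). They were taken by name from the expression table, which held 20089 genes, and all 10 were found. They comprise the receptors *Oscar*, *Trem2* and *Siglec15*, the adaptor chain *Fcer1g*, the kinases *Syk*, *Btk* and *Tec*, the scaffold proteins *Blnk* and *Lcp2*, and the phospholipase *Plcg2*. Expression was measured by RNA-seq in bone marrow-derived macrophages (BMDMs) of wild-type C57BL/6 mice, in 15 samples that form 5 groups of 3. The groups are control cells in M-CSF without a further stimulus (Control), cells given RANKL for 4 h or 72 h (RANKL 4 h, RANKL 72 h) and cells given LPS for 4 h or 72 h (LPS 4 h, LPS 72 h). M-CSF was used at 50 ng/mL and each stimulus at 100 ng/mL, and the labels give 3 days where the methods give 72 h. Cells had been in M-CSF for 3 days by the labels and 4 days by the methods before a stimulus. When control cells were harvested is not stated, so whether they were in culture as long as the stimulated cells is unknown. The stimulus and the time in culture therefore cannot be told apart in the 4 h and 72 h groups.

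RANKL drives macrophage precursors towards osteoclasts, and a costimulatory signal from ITAM adaptors is needed beside it. Receptors that lack a signalling tail, such as OSCAR with FcRγ (encoded by *Fcer1g*) and TREM2 and SIGLEC15 with DAP12, pass their signal to these adaptors, whose phosphorylated motifs recruit SYK. SYK acts with the Tec family kinases BTK and TEC, which phosphorylate PLCγ2 on a complex built by BLNK and SLP-76 (encoded by *Lcp2*), and the calcium released in this way activates NFATc1, the main transcription factor of osteoclast formation. The gene for DAP12, *Tyrobp*, was not analysed here, because the table in use breaks off before it in alphabetical order.

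Values are FPKM, that is fragments scaled to the length of the transcript and the depth of the sample, so levels can be compared between genes. The samples held 18306184 to 20330207 fragments on listed genes, and at this depth *Trem2* rested on 5769 to 13849 fragments in a sample but *Oscar* outside RANKL 72 h on only 0 to 9. All 8 macrophage markers listed, among them *Csf1r* and *Adgre1*, were found in every group, with a summed level of 5878 to 17430 FPKM, and 8 of 9 osteoclast markers were called higher in RANKL 72 h than in control cells. A single library stood apart from its group. Between LPS 72 h replicate 3 and the others, the log2 values of the 11743 tested genes differed with an SD of 0.76 and 0.68, against 0.39 between replicates 1 and 2, and its summed level of 8 LPS response genes was 2018 FPKM against 4396 and 4109 FPKM. The summed markers of each cell type listed other than osteoclasts were higher in it. For neutrophils they were 1819 against 187 and 152 FPKM, for stromal cells 435 against 77.9 and 74.1 FPKM. For macrophages they were 17430 against 6064 and 7804 FPKM. Most differences of single genes and counts of the pathway lists in that group are therefore given with and without that library. Values relative to the median gene and counts of cell type markers are given only with it. In bulk samples, fewer cells of a type and less RNA per cell cannot be told apart. Nothing in the sources says that replicates were separate cultures or animals, so p-values measure only the spread between these samples.

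The 10 genes covered a wide range of levels in control cells. *Fcer1g* was highest with 1085 ± 164 FPKM (SD, n = 3 for this and all further group means) and *Trem2* followed with 476 ± 55.7 FPKM, clear of each other and of the rest in every sample. *Blnk* (52.2 ± 2.90 FPKM), *Lcp2* (51.6 ± 6.10 FPKM), *Syk* (44.7 ± 5.71 FPKM), *Plcg2* (43.1 ± 7.84 FPKM) and *Btk* (36.3 ± 1.78 FPKM) formed a middle set in which neighbours overlapped. *Tec*, at 19.6 ± 2.09 FPKM, lay below that set in all 3 samples. *Siglec15* (0.153 ± 0.0808 FPKM) and *Oscar* (0.0615 ± 0.0556 FPKM) were near the limit of detection and overlapped each other. In RANKL 72 h *Oscar* moved up to the sixth place, with values that overlapped those of *Syk* and *Plcg2*, and *Siglec15* reached the level of *Tec*, from which it did not separate. In LPS 4 h *Lcp2* took the third place, above *Syk* in all 3 samples.

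**Figure D1:**
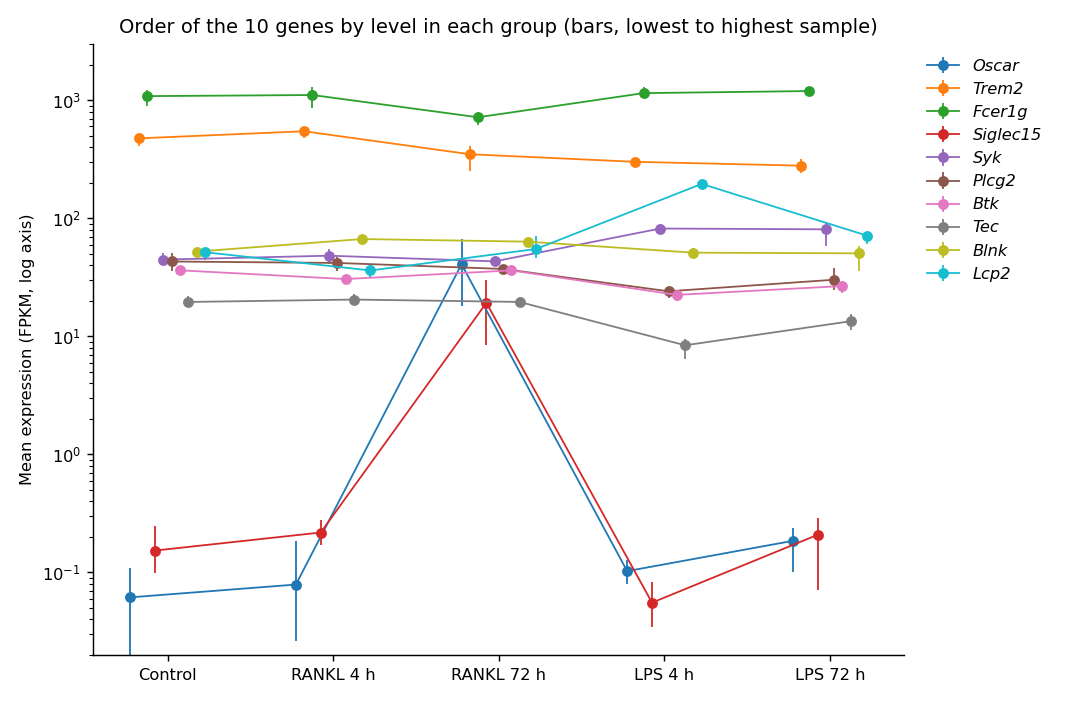
Mean expression of the 10 genes in FPKM on a log axis, for each of the 5 groups, with bars from the lowest to the highest of 3 samples; lines join the means of 1 gene and are no time course, and the bar of *Oscar* in control cells runs off the axis because 1 sample is at 0. *Oscar* and *Siglec15* rise out of the lowest range in RANKL 72 h alone, to means of 40.8 and 19.2 FPKM, while *Fcer1g* and *Trem2* stay the highest in all 5 groups.

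The annotation (GENCODE M21, GRCm38) places *Oscar* on chr7:3609813-3616157 (minus strand), *Lcp2* on chr11:34046920-34092295 (plus strand) and *Tec* on chr5:72755716-72868483 (minus strand). These 3 genes had the largest rise of the set under RANKL and the largest rise and fall under LPS. The 250 bases before their RefSeq start sites (GRCm38.p6) are shown 5′ to 3′ on the strand of the gene, for *Oscar* chr7:3616158-3616407, for *Lcp2* chr11:34046678-34046927 and for *Tec* chr5:72868449-72868698. Capitals mark matches, on either strand, to the letters GGAAA (core of an NFAT site), GAGGAA (core of a PU.1 site), CANNTG (E-box, bound by MITF among others), TGANTCA (AP-1 site) and to a loose NF-κB site (GGG, any 5 bases, then CC). Matches to GGAAA and GAGGAA can overlap.
Oscar: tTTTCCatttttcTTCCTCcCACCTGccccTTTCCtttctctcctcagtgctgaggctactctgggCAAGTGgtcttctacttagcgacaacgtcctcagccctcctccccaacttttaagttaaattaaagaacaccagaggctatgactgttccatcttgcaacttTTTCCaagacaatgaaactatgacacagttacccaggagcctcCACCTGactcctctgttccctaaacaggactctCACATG
Lcp2: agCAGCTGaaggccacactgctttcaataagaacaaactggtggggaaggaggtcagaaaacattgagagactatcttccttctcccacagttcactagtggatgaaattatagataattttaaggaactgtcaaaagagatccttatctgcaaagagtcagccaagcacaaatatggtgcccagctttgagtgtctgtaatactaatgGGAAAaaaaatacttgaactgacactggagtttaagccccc
Tec: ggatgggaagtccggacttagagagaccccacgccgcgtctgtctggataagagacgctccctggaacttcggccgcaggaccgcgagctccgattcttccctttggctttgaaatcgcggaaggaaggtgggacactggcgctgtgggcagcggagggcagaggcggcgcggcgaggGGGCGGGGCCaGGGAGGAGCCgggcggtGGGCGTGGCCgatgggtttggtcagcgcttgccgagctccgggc
The *Oscar* window held 3 matches to GGAAA, 1 to GAGGAA and 4 to CANNTG, the last of them directly before the start site. The *Lcp2* window held 1 match to GGAAA and 1 to CANNTG, and the *Tec* window only 3 matches to the NF-κB site. Of all 32851 mouse promoter windows of this length, 55.6% held GGAAA, 23.3% GAGGAA, 66.2% CANNTG, 6.75% TGANTCA and 45.8% the NF-κB site, so single matches are frequent anywhere. Among the 9 genes of the set with a window, 6 held GGAAA, 2 GAGGAA, 8 CANNTG, 1 TGANTCA and 4 the NF-κB site in the window of their first start site. *Syk* alone had 2 windows, and matches to the NFAT and PU.1 cores were found only in its second one. *Siglec15* had no entry used here.

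After 72 h of RANKL, the receptors *Oscar* and *Siglec15* rose and none of the kinases, scaffolds and phospholipase was called changed. *Oscar*, which binds exposed collagen and signals through FcRγ, had 37.5, 18.2 and 66.7 FPKM in RANKL 72 h replicates 1 to 3, against 0, 0.0762 and 0.108 FPKM in control cells. Each RANKL 72 h value lay far above each value of the other 4 groups, the highest of which was 0.237 FPKM. The log2 difference from control was 7.86 (standard error 0.45, adjusted p = 3.69e-07 from limma), and 4532 fragments in RANKL 72 h stood against 7 in control cells, a ratio of 675 at equal depth with a counting interval (95%) of 327 to 1679. *Siglec15*, a sialic acid-binding receptor of osteoclasts that pairs with DAP12, had 19.5, 8.47 and 29.8 FPKM against 0.0982, 0.115 and 0.246 FPKM in control cells. Its log2 difference was 6.12 (standard error 0.42, adjusted p = 7.32e-07 from limma) and its ratio 127 (3286 against 27 fragments, interval 87.0 to 193). Of the 10 genes 2 were thus called higher and 0 lower in RANKL 72 h, where 20.2% of all tested genes were called higher and 9.04% lower; the median of the 10 genes was 0.00 on the log2 scale and that of all tested genes 0.16. Since log2 differences of genes near 0 depend on the value added before the logarithm, *Oscar* ranged from 5.12 to 9.58 and *Siglec15* from 3.98 to 6.85 over the alternatives, with both called in every one. The same 3 libraries ordered both receptors alike, lowest in replicate 2 and highest in replicate 3. The 9 osteoclast markers were lowest in replicate 2 too, and 8 of them were highest in replicate 3. Stromal cell markers also moved with this group, with a summed level of 374 to 1729 FPKM in RANKL 72 h against 135 to 297 FPKM in control cells and 5 of 8 called higher, and their part in these differences was not tested.

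**Figure D2:**
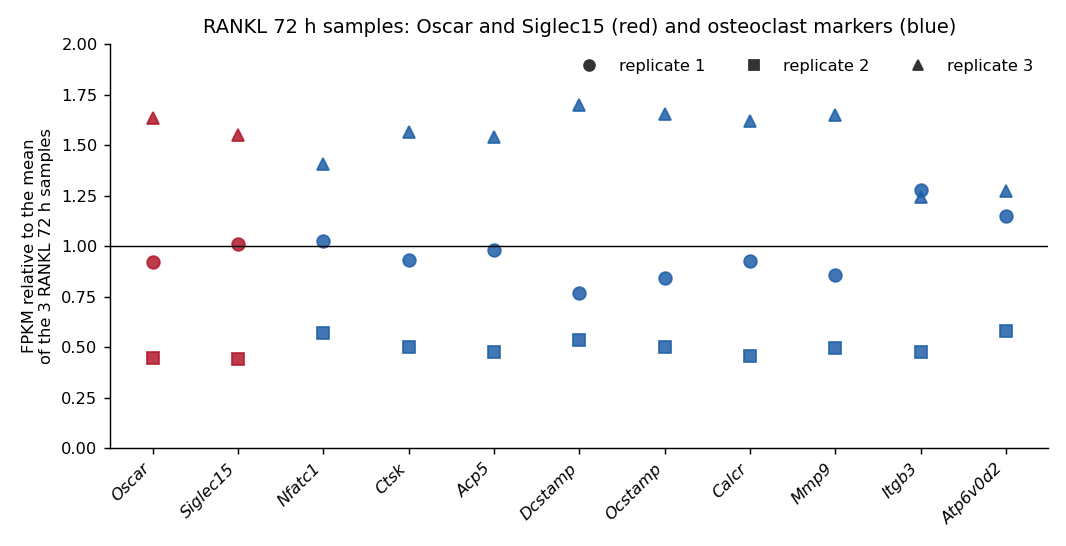
FPKM of *Oscar* and *Siglec15* (red) and 9 osteoclast marker genes (blue) in the 3 RANKL 72 h samples, each divided by the mean of its 3 values; symbols mark the replicates. Replicate 2 is lowest for all 11 genes and replicate 3 highest for all but *Itgb3*.

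The partner chain of OSCAR was not called changed. *Fcer1g*, which carries the ITAM for OSCAR and for Fc receptors, had 1213, 1141 and 900 FPKM in control cells, compared with 733, 802 and 620 FPKM after RANKL 72 h, so all 3 samples lay below control. Its log2 difference of -0.59 (standard error 0.18, adjusted p = 0.0227 from limma) fell just short of the fold of 0.66 that a call required, with a fitted fold of 0.664. *Trem2*, the receptor for lipids and cell debris that pairs with DAP12, had 412, 382 and 253 FPKM against 412, 504 and 512 FPKM in control cells, where replicate 1 of both groups was almost equal. Its log2 difference was -0.47 (standard error 0.18, adjusted p = 0.0583 from limma), which was not called. The median level of the tested genes within a sample (called the median gene from here on, and distinct from the median of the log2 differences) was on average 0.22 higher on the log2 scale in RANKL 72 h than in control cells. With each sample centred on its own median both genes were called lower, *Fcer1g* at -0.81 and *Trem2* at -0.69, where 14.2% of all tested genes were called lower and 12.7% higher. Without RANKL 72 h replicate 1 they were called lower too, at -0.61 each, and 4 of the 10 genes then changed in place of 2. *Fcer1g* was also called lower without RANKL 72 h replicate 2 (-0.67) or Control replicate 3 (-0.72), and so took the other call in 4 of 16 alternatives. Its difference ranged from -0.81 to -0.47 over these. *Trem2* took the other call in 2 of 16 alternatives, with a range from -0.69 to -0.26. The smallest difference of *Trem2* came without RANKL 72 h replicate 3, which held its lowest value. Markers of several other blood cells fell in the same group. Markers of T and NK cells did not fall as a list, with 1 of 9 called higher and 1 lower (median 0.62). Basophils and mast cells carry FcRγ in their IgE receptor, and 7 of 7 of their markers tested were called lower, with a sum of 1.45 to 6.47 FPKM against 27.7 to 72.1 FPKM in control cells. In LPS 72 h 7 of 7 were called lower as well, with a sum of 1.34 to 7.64 FPKM. There *Fcer1g* differed from control by 0.15, which was not called. Called lower in RANKL 72 h were also 5 of 6 megakaryocyte, 5 of 7 tested B cell and 5 of 11 neutrophil markers. Of all tested genes 9.04% were called lower. The whole megakaryocyte list summed to 268 to 428 against 663 to 771 FPKM, mostly *Pf4* (363 against 621 FPKM), which was not called. *Pf4* fell by 0.80 on the log2 scale and the 5 called markers by 2.34 to 4.71. The B cell list summed to 5.54 to 8.91 against 17.7 to 23.1 FPKM, in RANKL 72 h mostly *Cd79b* (5.60 against 10.3 FPKM), also not called. No marker of these lists was at 0 throughout RANKL 72 h but *Igll1*, which was also at 0 in control cells, and their part in the differences of *Fcer1g* and *Trem2* was not tested. For every 1000 FPKM of *Fcer1g* there were 0.0623 ± 0.0603 FPKM of *Oscar* in control cells, compared with 60.5 ± 43.2 FPKM after RANKL 72 h. For *Trem2* the same measure was 450 ± 115 FPKM in control cells, compared with 482 ± 77.1 FPKM after RANKL 72 h, with overlapping ranges.

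The genes below the receptors kept close to control after 72 h of RANKL. *Syk* had 46.3, 39.4 and 43.9 FPKM against 40.2, 42.8 and 51.1 FPKM (log2 difference -0.05, 95% interval -0.42 to 0.33). *Btk*, with 34.2, 34.3 and 40.0 FPKM (-0.01, interval -0.26 to 0.25), *Tec* (0.00, interval -0.35 to 0.35) and *Lcp2* (0.07, interval -0.28 to 0.42) overlapped control as well, and a fold of 1.5 in either direction lies outside these intervals. *Plcg2* differed by -0.19 (interval -0.56 to 0.17). *Blnk* had 69.7, 58.0 and 62.6 FPKM against 49.0, 53.0 and 54.7 FPKM, with all 3 values above control, but its log2 difference of 0.28 (interval -0.07 to 0.63) was not called.

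**Figure D3:**
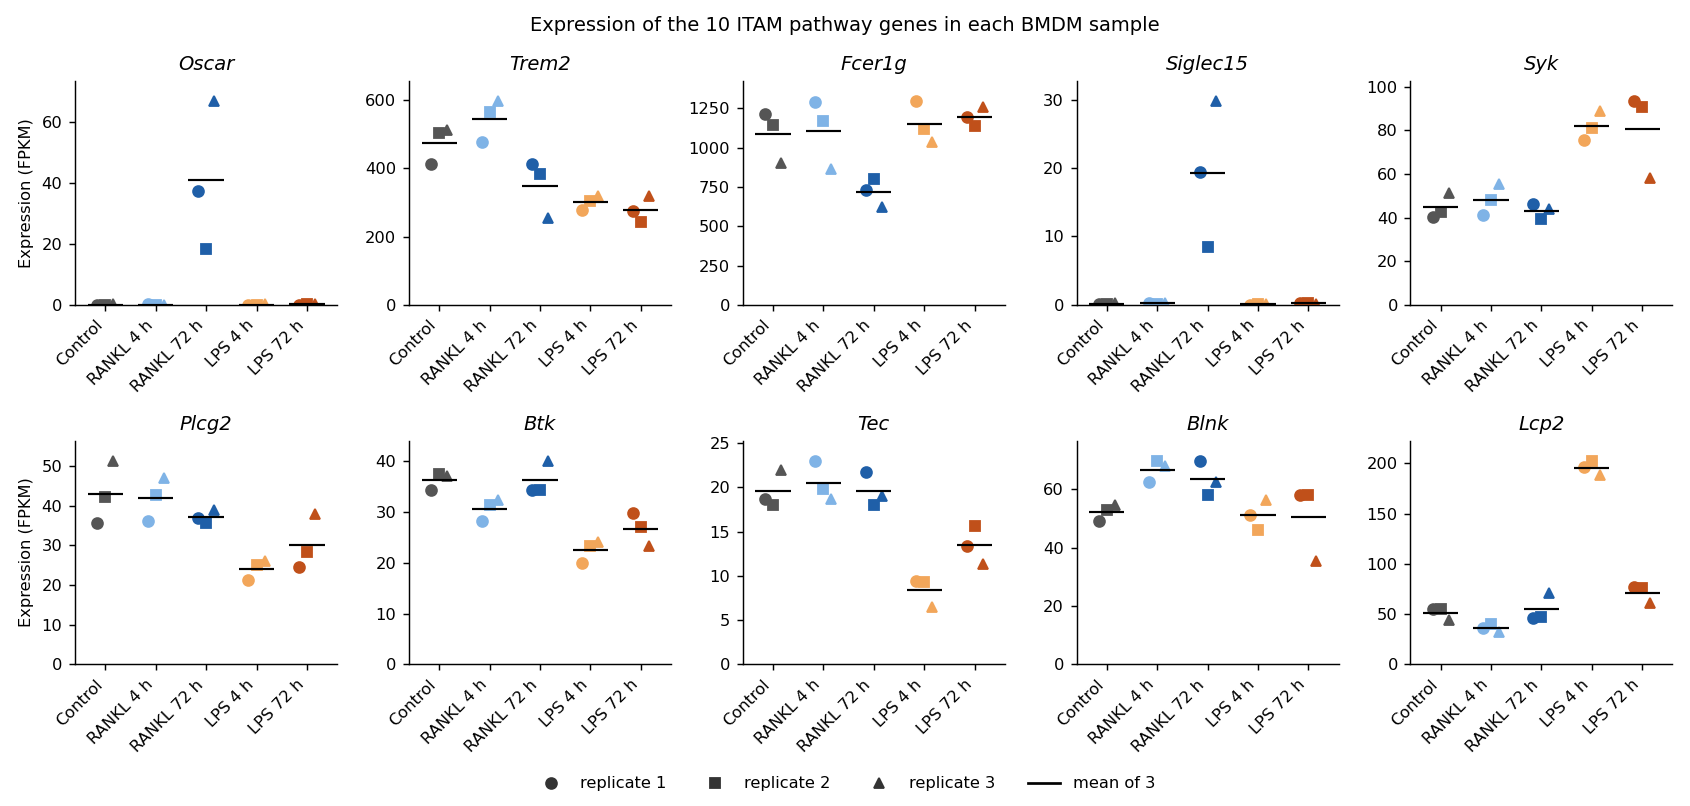
Expression in FPKM of the 10 genes in each of the 15 samples, by group, with a symbol for each replicate and a bar at the mean of 3; each panel has its own linear axis from 0. *Oscar* and *Siglec15* stand out in RANKL 72 h, whereas *Lcp2* and *Syk* are highest and *Tec*, *Plcg2* and *Btk* lowest under LPS.

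After 4 h of RANKL, 0 of the 10 genes were called, where 1.21% of all tested genes were called higher and 1.35% lower. *Lcp2* and *Blnk* were the 2 with an unadjusted p under 0.05 in limma, as 4.96% of all tested genes were. *Lcp2*, whose product SLP-76 is a scaffold for PLCγ, had 36.4, 40.2 and 31.9 FPKM, below all control values of 55.4, 54.9 and 44.6 FPKM. Its log2 difference was -0.51 (standard error 0.16, adjusted p = 0.497 from limma), and it was called without Control replicate 3, at -0.61. *Blnk*, the related scaffold best known from B cells, had 62.4, 69.7 and 68.1 FPKM, above all control values (log2 difference 0.35, standard error 0.16, adjusted p = 0.992 from limma). *Oscar* and *Siglec15* were not called at this time, with 9 fragments of *Oscar* in the 3 RANKL 4 h samples and 7 in control cells.

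LPS for 4 h moved the signalling genes in opposite directions. *Lcp2* and *Syk* rose, while *Tec*, *Plcg2*, *Btk* and *Trem2* fell, so that 2 of 10 were called higher and 4 lower beside 8.75% and 41% of all tested genes. *Lcp2* had 196, 202 and 189 FPKM, 3.80-fold its level in control cells (log2 difference 1.93, standard error 0.16, adjusted p = 5.29e-07 from limma), and no sample of any other group exceeded 77.0 FPKM. *Syk*, the kinase that reads phosphorylated ITAMs, had 75.7, 81.2 and 89.0 FPKM, against at most 51.1 FPKM in control cells (log2 difference 0.88, standard error 0.17, adjusted p = 0.000661 from limma).

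Of the Tec family kinases, *Tec* fell from 18.7, 18.0 and 21.9 FPKM to 9.46, 9.27 and 6.47 FPKM (log2 difference -1.23, standard error 0.16, adjusted p = 3.15e-05 from limma). *Btk* fell from 34.2, 37.5 and 37.1 FPKM to 19.9, 23.3 and 24.2 FPKM (-0.69, standard error 0.12, adjusted p = 0.000223 from limma). *Plcg2*, whose product makes the messengers for calcium release, fell from 35.7, 42.3 and 51.3 FPKM to 21.2, 25.0 and 26.1 FPKM (-0.83, standard error 0.17, adjusted p = 0.000864 from limma). In each of these 3 genes every LPS 4 h sample lay below every control sample. *Trem2* fell from 412, 504 and 512 FPKM to 279, 305 and 319 FPKM (-0.66, standard error 0.18, adjusted p = 0.00591 from limma), again without overlap. *Fcer1g* (0.09) and *Blnk* (-0.03) overlapped control, and *Oscar* and *Siglec15* remained at 3 to 5 and 2 to 5 fragments a sample.

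These falls have to be read against a shift of the whole table. The median gene was 0.57 lower on the log2 scale in LPS 4 h than in control cells, and relative to it *Tec* (-0.66) was still called lower, whereas *Plcg2* (-0.26), *Btk* (-0.13) and *Trem2* (-0.09) were not called. Relative to the median gene *Lcp2* (2.49) and *Syk* (1.44) rose further, and *Fcer1g* (0.66) was called higher, which made 3 genes higher and 1 lower beside 17.4% and 14.3% of all tested genes. The sum of B cell markers moved in the same direction as *Btk* and *Plcg2*, both genes of B cells as well. For 9 of these markers the sum was 3.20 to 13.6 FPKM in LPS 4 h and 17.7 to 23.1 FPKM in control cells. *Igll1* was at 0 in all control samples, and *Cd79b* fell from a mean of 10.3 to 2.47 FPKM. Of 7 markers tested, 2 were called lower, beside 41% of all tested genes. Relative to the median gene 1 of 7 was called lower, beside 14.3%. The part of these markers in the falls was not tested. An exon of *Lcp2* overlaps one of the antisense gene *4930469K13Rik*, and whether strand was used in counting is not given in the sources used here.

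After 72 h of LPS, 1 of the 10 genes was called higher and 1 lower, where 14.9% and 16.1% of all tested genes were called. *Syk* had 93.3, 90.7 and 58.1 FPKM, all above control (log2 difference 0.83, standard error 0.17, adjusted p = 0.00241 from limma), and the lowest of these values came from replicate 3, without which the difference was 1.05. *Trem2* had 275, 244 and 318 FPKM, all below control (log2 difference -0.77, standard error 0.18, adjusted p = 0.00445 from limma), and -0.87 without replicate 3. *Lcp2* had 77.0, 75.8 and 60.8 FPKM, above the control values, but its log2 difference of 0.46 (standard error 0.16, adjusted p = 0.0385 from limma) did not reach the fold for a call, nor did the 0.57 without replicate 3.

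The kinases and phospholipase that were low at 4 h gave smaller differences. *Tec* had 13.3, 15.6 and 11.4 FPKM (log2 difference -0.55, adjusted p = 0.0193 from limma) and *Btk* 29.7, 27.1 and 23.2 FPKM (-0.45, adjusted p = 0.00995 from limma), each below all control values without reaching the fold. Without replicate 3 they differed by -0.43 and -0.35, which was not called either. *Plcg2* had 24.5, 28.2 and 37.8 FPKM (-0.52, adjusted p = 0.0278 from limma), and its highest value, in replicate 3, overlapped control. Without that library *Plcg2* was called lower at -0.69. *Blnk* had 57.9, 58.1 and 35.5 FPKM, so that replicate 3 was the lowest of all 15 samples, and its difference of -0.08 became 0.15 without it. Relative to the median gene, which was 0.08 higher than in control cells, *Tec* (-0.63) and *Plcg2* (-0.60) were called lower too, which made 1 gene higher and 3 lower beside 11.8% and 18.1% of all tested genes. *Fcer1g* held 1197, 1139 and 1257 FPKM, within or slightly above the control values (log2 difference 0.15, and 0.12 without replicate 3). B cell markers were low here as well, with a sum of at most 2.75 FPKM against 17.7 to 23.1 FPKM in control cells. *Igll1* was at 0 in both groups. Of 7 markers tested, 6 were called lower, beside 16.1% of all tested genes. The part of these markers in the values of *Btk* and *Plcg2* was not tested.

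**Figure D4:**
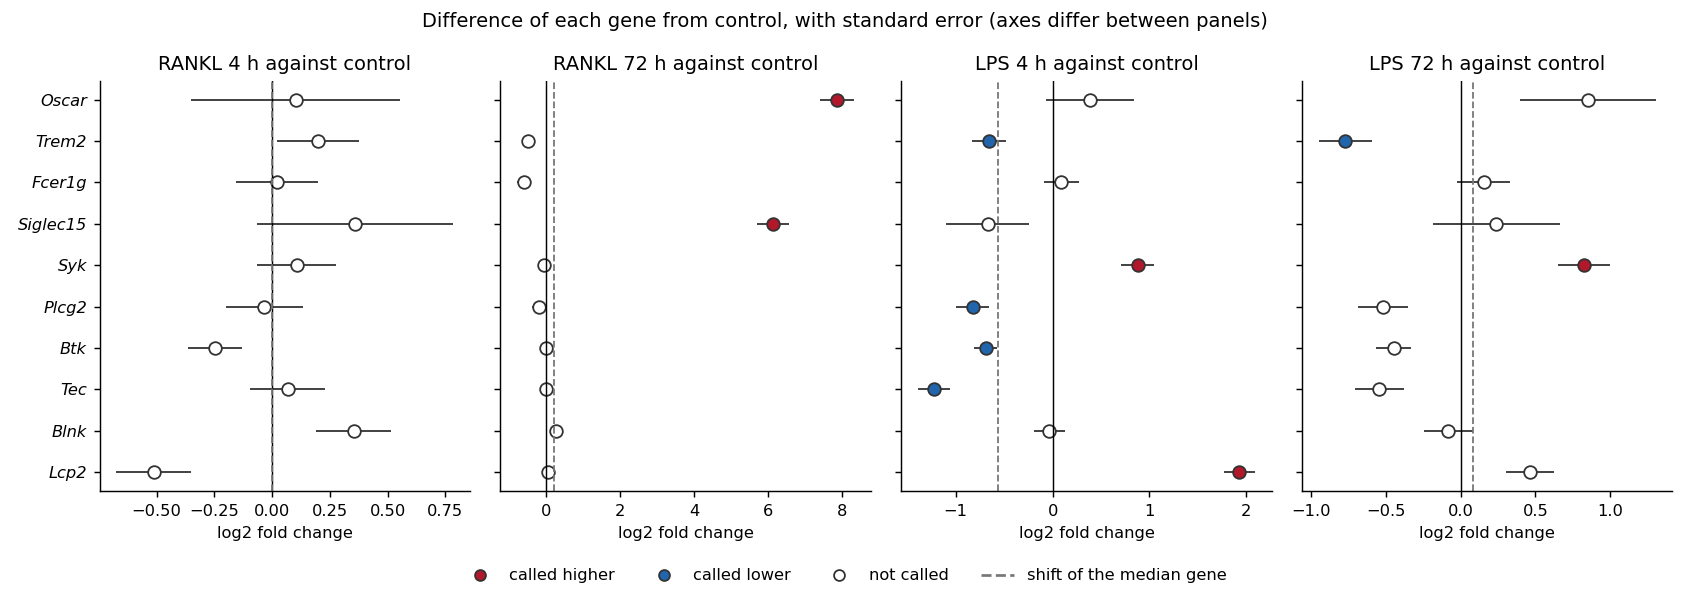
Log2 fold change of each of the 10 genes against control in the 4 stimulated groups, with standard errors; filled points passed the thresholds, and the dashed line marks the shift of the median gene (-0.57 in LPS 4 h, 0.22 in RANKL 72 h). The horizontal axes differ between panels, and *Oscar* and *Siglec15* set that of RANKL 72 h.

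Direct comparisons of the stimuli tested whether these responses differed. RANKL and LPS shared their control samples, so each was set against the other at the same time. At 4 h, 4 genes were called higher and 2 lower under RANKL than under LPS, beside 42.5% and 9.31% of all tested genes. *Tec* (log2 difference 1.29, adjusted p = 1.84e-05 from limma), *Trem2* (0.86, adjusted p = 0.000947 from limma) and *Plcg2* (0.79, adjusted p = 0.00113 from limma) were higher with RANKL. *Lcp2* (-2.44, adjusted p = 6.45e-08 from limma) and *Syk* (-0.77, adjusted p = 0.00165 from limma) were lower. The median gene was 0.57 higher with RANKL here, and relative to it *Tec* (0.72), *Lcp2* and *Syk* were still called but *Trem2* (0.29) and *Plcg2* (0.23) were not, and with *Fcer1g* (-0.63) 1 gene was called higher and 3 lower beside 14.7% and 17.6% of all tested genes. *Siglec15* (1.03, adjusted p = 0.0485 from limma) rested on 10 to 16 against 2 to 5 fragments a sample and lost its call in 7 of 16 alternatives.

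At 72 h, 2 genes were called higher and 2 lower under RANKL than under LPS, beside 25.1% and 13.8% of all tested genes. *Oscar* (log2 difference 7.01, adjusted p = 2.34e-07 from limma) and *Siglec15* (5.89, adjusted p = 4.30e-07 from limma) were higher. *Syk* (-0.87, adjusted p = 0.00105 from limma) and *Fcer1g* (-0.74, adjusted p = 0.00390 from limma) were lower, without overlap. Without LPS 72 h replicate 3 the differences of these 4 genes were 7.10, 5.50, -1.09 and -0.71, and each was called. *Trem2*, which was below control under LPS, differed by 0.30 between the stimuli (95% interval -0.08 to 0.68) and by 0.40 without that replicate, neither of which was called, so its level was not shown to differ between RANKL and LPS at this time.

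Between the times of 1 stimulus, 2 genes were called higher and 2 lower at 72 h under RANKL, beside 20.1% and 8.24% of all tested genes, and 1 and 1 under LPS, beside 45% and 14.3%. From RANKL 4 h to RANKL 72 h *Oscar* and *Siglec15* were higher and *Trem2* (log2 difference -0.67, adjusted p = 0.0126 from limma) and *Fcer1g* (-0.61, adjusted p = 0.0201 from limma) lower. Without RANKL 72 h replicate 3 the latter 2 genes were no longer called, at -0.46 and -0.51. *Trem2* lost its call in 2 of 16 alternatives and *Fcer1g* in 4 of 16, where its difference ranged from -0.83 to -0.49. *Lcp2* was 0.58 higher (adjusted p = 0.0159 from limma), just short of the fold of 1.5. It was called in 6 of 16 alternatives, among them without RANKL 72 h replicate 1 (0.69) or 2 (0.67), and ranged from 0.36 to 0.70. From LPS 4 h to LPS 72 h *Lcp2* was lower (-1.46, adjusted p = 3.75e-06 from limma) and *Tec* higher (0.68, adjusted p = 0.00219 from limma). The median gene was 0.65 higher at the later time, and relative to it *Tec* differed by 0.03, which was not called. *Tec* also lost its call without LPS 72 h replicate 2 (0.57) or LPS 4 h replicate 3 (0.50). Without LPS 72 h replicate 3 *Lcp2* (-1.35) and *Tec* (0.79) kept theirs, *Siglec15* gained one (1.29) and *Syk* differed by 0.17. *Syk* differed by -0.05 (95% interval -0.42 to 0.32), which was not called, but relative to the median gene it was called lower, at -0.70, as were *Blnk*, *Lcp2* and *Trem2*, so that 4 genes were lower and 0 higher beside 28.6% and 19.5% of all tested genes.

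Across the 15 samples, which share 5 groups and are not independent, the 10 genes fell into few patterns. The correlation of log2 levels was 0.97 between *Oscar* and *Siglec15*, 0.78 between *Btk* and *Tec*, 0.75 between *Plcg2* and *Tec* and -0.89 between *Tec* and *Lcp2*. Among the tested genes most like *Oscar* were *Nyap2* (0.99), *Mst1r* (0.99), *Calcr* (0.99) and *Akap6* (0.99), of which *Calcr* encodes the calcitonin receptor of osteoclasts. *Nyap2* and *Akap6* were also among the 5 most like *Siglec15*, as were *Sgsm1* and *Cyp2s1* (0.98 to 0.99). *Lcp2* was most like *Tiparp*, *Nod2*, *Susd6*, *Sav1* and *Foxp4* (0.96 to 0.97), of which *Nod2* encodes a sensor of bacterial cell walls. *Syk* was most like *Ptpn23*, *Tbk1*, *Tma16*, *Cnot4* and *Pip5k1a* (0.94 to 0.96), of which *Tbk1* encodes a kinase of interferon induction. *Fcer1g* was most like *Ms4a6d*, *H2-T23*, *Fcgr4*, *B2m* and *H2-T22* (0.93 to 0.95), where *Fcgr4* encodes an IgG receptor that needs FcRγ and *B2m* the light chain of MHC class I. *Blnk* had no close likeness, its nearest gene being *Cep63* (0.84).

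The other genes of the pathway were counted in 3 lists. Of 26 further receptors and adaptors that work through FcRγ, DAP12 or a related motif, 22 were tested, and 3 were called higher and 9 lower in RANKL 72 h (median of the list -0.52, of all tested genes 0.16), beside 20.2% and 9.04% of all tested genes. Relative to the median gene the counts were 2 and 14, beside 12.7% and 14.2%. *Fcgr1*, the high-affinity IgG receptor, fell from 298 ± 138 to 51.4 ± 20.4 FPKM (log2 difference -2.48, adjusted p = 0.000379 from limma), and *Trem3*, which pairs with DAP12, from 24.5 ± 9.85 to 6.36 ± 3.80 FPKM (-2.03, adjusted p = 0.00904 from limma). *Siglech*, a DAP12-coupled lectin best known from plasmacytoid dendritic cells, fell by 3.09 on the log2 scale from a low level of 2.82 ± 1.42 FPKM. *Pira2* (1.23), *Pira6* (1.22) and *Pira1* (0.69), paired immunoglobulin-like receptors that signal through FcRγ, were called higher, the lowest of them (*Pira1*) at 2.97 ± 0.177 FPKM. These 3 genes are near-identical copies and reads can be split between them, so the values of single copies are uncertain, and *Pira1* (0.47) was not called relative to the median gene.

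In LPS 4 h, 7 of the 22 receptors were called higher and 2 lower, beside 8.75% and 41% of all tested genes, and relative to the median gene 8 and 1, beside 17.4% and 14.3%. In LPS 72 h the counts were 9 and 5 with a list median of 0.57, beside 14.9% and 16.1% of all tested genes. Without LPS 72 h replicate 3 they were 10 and 4 with a median of 0.48, beside 19.6% and 17.1%. *Clec4e*, the glycolipid receptor Mincle, rose from 10.4 ± 3.23 to 350 ± 14.9 FPKM at 4 h (log2 difference 5.11, adjusted p = 4.29e-09 from limma) and was at 66.6 ± 18.4 FPKM at 72 h (2.68, adjusted p = 7.45e-06 from limma, and 2.78 without replicate 3). Its relatives *Clec4d* (1.69) and *Clec4n* (1.67) rose by 72 h, and in RANKL 72 h both were called lower, at -1.04 and -1.64. *Pilrb1* (0.93) and *Clec5a* (0.81), which pair with DAP12, rose at 4 h, and reads of *Pilrb1* can be shared with its near copy *Pilrb2*. *Cd300lb*, also linked to DAP12, fell by 4.00 on the log2 scale at 4 h and by 2.03 at 72 h. *Cd300ld* (-0.86) was called lower at 4 h, though at -0.29 relative to the median gene it was not. At 72 h *Trem3* (-1.99) was lower, and *Siglech* was listed at 0 in all 3 samples. Without LPS 72 h replicate 3 *Clec4d* (1.83), *Clec4n* (1.62), *Cd300lb* (-2.19) and *Trem3* (-2.49) were called in the same direction. Markers of neutrophils and their precursors, which express several of these receptors, summed to 7920 to 24388 FPKM in control cells, 1904 to 7659 FPKM in RANKL 72 h and 152 to 1819 FPKM in LPS 72 h, with 5 and 11 of 11 called lower, none of them at 0 in a whole group. Their part in the changes of the list was not tested. After 4 h of RANKL 0 of the 22 receptors were called.

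Of 29 further kinases, adaptors and effectors 28 were tested. In RANKL 72 h 5 were called higher and 5 lower, in LPS 4 h 5 and 7, in LPS 72 h 2 and 7 (2 and 8 without replicate 3) and in RANKL 4 h 0 and 2. Of all tested genes 20.2% and 9.04%, 8.75% and 41%, 14.9% and 16.1% and 1.21% and 1.35% were called in these comparisons. Without LPS 72 h replicate 3 the shares in that group were 19.6% and 17.1%. *Src*, one of the kinases that phosphorylate ITAMs and a gene needed for bone resorption, rose from 4.35 ± 1.48 FPKM to 30.3 ± 12.6 FPKM in RANKL 72 h (log2 difference 2.74, adjusted p = 6.04e-05 from limma), to 58.7 ± 3.02 FPKM in LPS 4 h (3.77, adjusted p = 6.42e-07 from limma) and to 12.6 ± 1.40 FPKM in LPS 72 h (1.56, adjusted p = 0.00226 from limma, and 1.62 without replicate 3). *Malt1*, which works with CARD9 and BCL10 below SYK, rose in both (1.09 and 3.84), while *Card9* itself fell in LPS 4 h (-1.39). *Itpr3*, a calcium release channel, rose in RANKL 72 h (1.22) and fell in LPS 4 h (-1.34).

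*Lat2*, an adaptor related to LAT, was called lower in RANKL 72 h (-0.66), LPS 4 h (-1.46) and LPS 72 h (-0.76), and *Pik3ap1*, an adaptor for phosphoinositide 3-kinase, in RANKL 72 h (-0.99). *Lat* (-1.77) and *Fyn* (-1.18) were called lower in LPS 72 h. Without replicate 3 of that group *Lat2* (-0.68), *Lat* (-1.62) and *Fyn* (-1.36) were called lower too. The 2 genes called after 4 h of RANKL were *Itpr1* (-0.75, adjusted p = 0.157 from limma) and *Pik3cd* (-0.63, adjusted p = 0.264 from limma), neither of which passed the adjustment. In LPS 4 h the counts became 10 higher and 5 lower relative to the median gene, beside 17.4% and 14.3% of all tested genes, and in RANKL 72 h 5 and 9, beside 12.7% and 14.2%.

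The 25 genes that oppose ITAM signals, namely receptors with an inhibitory motif (ITIM) and the phosphatases and adaptors they recruit, were all tested. In RANKL 72 h 2 were called higher and 3 lower, in LPS 4 h 4 and 10, in LPS 72 h 5 and 7 and in RANKL 4 h 0 and 0, beside the same shares of all tested genes as for the kinases, of which the 41% lower in LPS 4 h is close to the 10 of 25 here. Relative to the median gene the counts in LPS 4 h were 7 higher and 6 lower, beside 17.4% and 14.3% of all tested genes. In RANKL 72 h they were 1 and 5, beside 12.7% and 14.2%. Without LPS 72 h replicate 3 the counts in that group were 2 and 6, beside 19.6% and 17.1% of all tested genes. *Ptpn22*, a phosphatase that acts on Src family kinases, rose in RANKL 72 h (1.35) and fell in LPS 4 h (-1.83) and LPS 72 h (-1.13). *Inpp5d*, which encodes the lipid phosphatase SHIP1, fell in LPS 4 h from 55.4 ± 6.42 to 12.6 ± 1.99 FPKM (log2 difference -2.13, adjusted p = 7.52e-08 from limma), and the adaptor *Dok2* fell by 2.20 on the log2 scale. *Fcgr2b* (1.48), the inhibitory IgG receptor, and *Siglece* (1.45) and *Pilra* (1.09) rose in LPS 4 h, and *Pilra* (2.37), *Siglece* (2.22) and *Pirb* (0.76) were called higher in LPS 72 h. *Ptpn6*, which encodes the phosphatase SHP-1, fell in LPS 72 h from 184 ± 8.57 to 104 ± 7.97 FPKM (-0.83, adjusted p = 0.000574 from limma), as did the collagen receptor *Lair1* (-1.18). Without LPS 72 h replicate 3 *Pirb* (0.58) was not called, whereas *Pilra* (2.08), *Siglece* (1.91), *Ptpn22* (-1.26), *Ptpn6* (-0.89) and *Lair1* (-1.50) were called in the same direction. In RANKL 72 h *Cd300a* (-1.49) and *Lilrb4a* (-0.68) fell and *Clec12a* (0.66) rose, the last not called relative to the median gene.

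**Figure D5:**
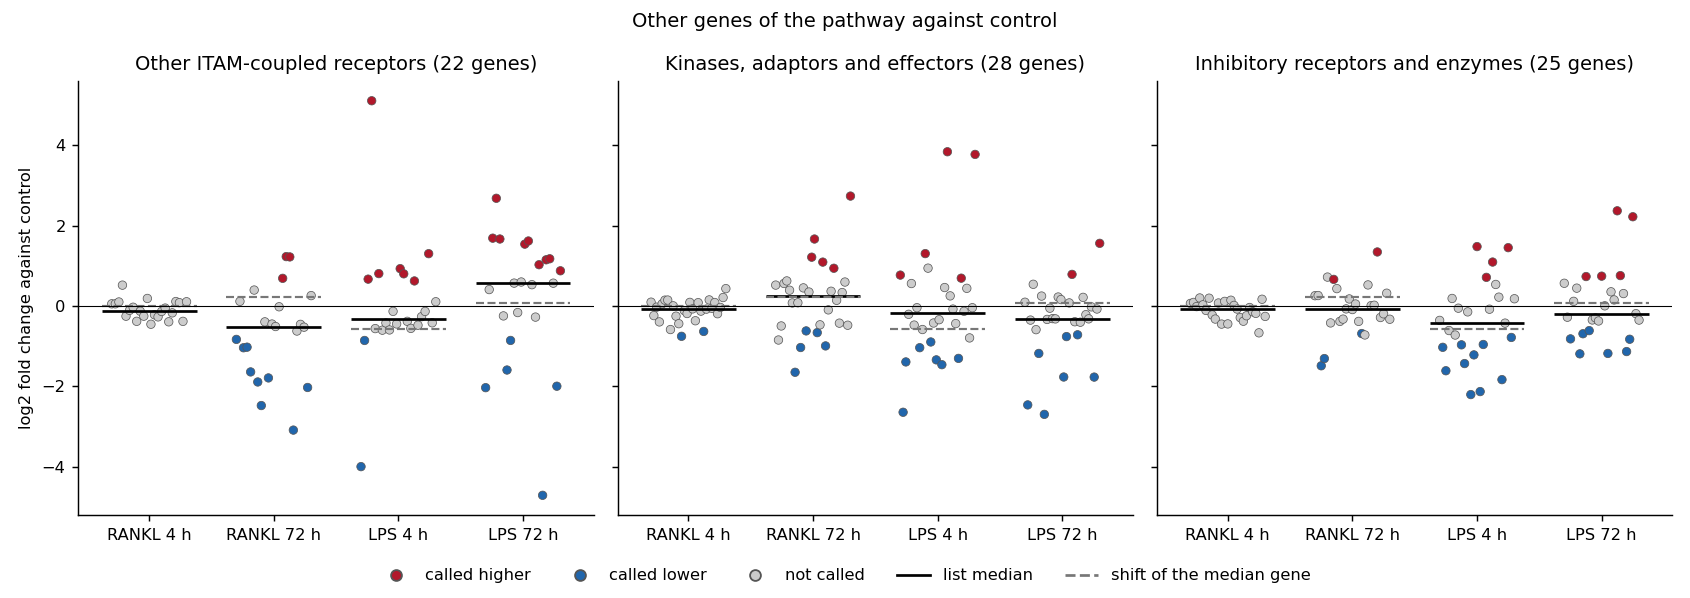
Log2 fold change against control of the 22 further ITAM-coupled receptors, 28 kinases, adaptors and effectors and 25 inhibitory genes tested, 1 point for a gene, in the 4 stimulated groups; black bars mark list medians and dashed lines the shift of the median gene. Points of RANKL 4 h lie close to 0, and the receptors lie mostly below 0 in RANKL 72 h (median -0.52) and mostly above 0 in LPS 72 h (median 0.57).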

How the data were processed

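RNA-seq of BMDMs was analysed in 15 samples, 3 per group, with groups and replicate numbers from the sample labels. The authors deposited FPKM values for each gene and sample, made with StringTie and Ballgown by their methods. The submitters' processing notes name StringTie and the builds GRCm38.p4 and mm10. The aligner, annotation and use of strand are not given in the sources used here. The table breaks off at an incomplete entry for *Ttk*, 4453 of its 20089 genes were at 0 in every sample, and 0 sample columns were left unused. FPKM were whole multiples of a step, and fragments could be recovered from them for 14485 of the 14485 genes with 3 or more samples above 0 (100% of values within 0.01 of a whole fragment). Counting intervals are exact and cover counting error only.

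Log2(FPKM + 0.1) was fitted with limma 3.58.1 (R 4.3.3; lmFit, eBayes with trend) for 11743 genes averaging at least 0.1 FPKM, in 1 fit of the 5 groups, two-sided. The value added understates fold changes of low genes. As in the methods, a gene was called at a fold over 1.5 or under 0.66 with an unadjusted p under 0.05; Benjamini-Hochberg p-values cover all tested genes. The methods used a count model, which needs counts, so limma took its place, with limma voom on the recovered fragments as an alternative. On simulated data for RANKL 72 h against control (11743 genes), 88 of 100 genes changed 2-fold, 100 of 100 changed 4-fold and 255 of 11543 unchanged genes were called. Other alternatives were pseudocounts of 1 and 0.01, other filters and scalings, other fits, adjusted p and leaving out replicates.

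Deviations from group means over 9486 genes (which are not independent) correlated between same-numbered samples at 0.71 to 0.84 for RANKL 4 h and control, 0.44 to 0.62 for LPS 4 h and control, 0.14 to 0.32 for RANKL 72 h and control, 0.55 to 0.69 for RANKL 4 h and LPS 4 h and 0.16 to 0.25 for RANKL 72 h and RANKL 4 h. Every pair was over 0.1, so numbers were taken to pair these samples, from the data and not from a stated shared animal. The main fit did not use this pairing, so all p-values, intervals, counts and shares given are unpaired. It entered only as an alternative for the 10 genes, the replicate block. For each list and comparison with control, at most 3 called genes per direction were named, those with the largest log2 change whose samples did not overlap and whose mean was at least 1 FPKM. Some genes that these rules name are not reported here. Likeness is Pearson's correlation over the 15 samples. The 10 genes and the lists were chosen with earlier results of these data known. Coordinates are GENCODE M21 (GRCm38), promoters RefSeq (GRCm38.p6), found for 9 of 10 genes. Other steps ran in Python 3.11.15 (numpy 2.4.6, scipy 1.17.1, pandas 2.3.3, matplotlib 3.10.9 for figures).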

Additional observations from a re-analysis of the deposited data

Results flagged for a closer look

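Differences between the 4 h and 72 h samples of 1 stimulus passed the limma test of that difference itself, together with the fold of a call, for 6 pairs of gene and stimulus. Under RANKL, *Oscar* differed by 7.76, *Siglec15* by 5.76, *Trem2* by -0.67 and *Fcer1g* by -0.61 on the log2 scale between 72 h and 4 h. Under LPS, *Tec* differed by 0.68 and *Lcp2* by -1.46. The calls of *Trem2* and *Fcer1g* were lost in 2 and 4 of 16 alternatives, among them the fit without RANKL 72 h replicate 3 (-0.46 and -0.51). The call of *Tec* was lost in 3 of 16 alternatives, among them relative to the median gene (0.03).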

How the results depend on the processing

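Over 1360 values of single genes under alternatives, 1305 kept their call, 33 gained one, 22 lost one and 0 of the called values changed sign. Centring on the median gene gave 4 called genes in place of 2 in RANKL 72 h, LPS 72 h (each against control) and LPS 72 h against LPS 4 h, where the shift of the median gene sets the difference. Leaving out 1 replicate gave 0 to 1 called genes in RANKL 4 h (1, *Lcp2*, without Control replicate 3), 2 to 4 in RANKL 72 h (4 without its replicate 1), 5 to 6 in LPS 4 h and 2 to 3 in LPS 72 h, each against control. It gave 5 to 6 for RANKL against LPS at 4 h and 4 to 5 at 72 h, 2 to 5 for RANKL 72 h against 4 h (2 without RANKL 72 h replicate 3) and 1 to 3 for LPS 72 h against 4 h (1, *Lcp2*, without LPS 72 h replicate 2 or LPS 4 h replicate 3). The replicate block gave 0 and 2 called genes at 4 h and 72 h of RANKL against control, 6 and 2 for the times of LPS, and 6, 4, 4 and 2 in the other comparisons, as without the block, and changed no call. For the LPS 72 h samples the pairs correlated at -0.03 to 0.18 with control, -0.23 to -0.02 with RANKL 72 h and -0.15 to 0.07 with LPS 4 h, so these share only a number. Fragments set the limit for *Oscar* and *Siglec15* outside RANKL 72 h: with a pseudocount of 0.01, *Siglec15* was called in LPS 4 h (-1.28) and *Oscar* in LPS 72 h (1.98).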
